A study of Mus musculus with 84 samples.

Results

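The F cells are 25 single neurons of mouse prefrontal cortex, out of 84 neurons in the series. They were chosen by the letter F at the start of the cell number in their titles, and no measured value entered the choice. No label spells the letter out. Fast-spiking and pyramidal cells are both named in the title of the series, and the letter P stands on the other 59 neurons. Every cell came from an acute slice of cortex, cut at 300 µm, of strain C57/BL6/N mice with no treatment. Its content was drawn into a patch pipette after recording, amplified as antisense RNA by in vitro transcription, and made into a stranded TruSeq library. Age, sex and animal are recorded for no cell in the labels, so the cells may share animals and count as 1 sample. No test was made, and intervals over cells describe only the draw of these cells.

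Fast-spiking neurons are GABAergic interneurons that fire long trains of brief action potentials with little adaptation. Potassium channels of the Kv3 family close the spike quickly, and the calcium-binding protein parvalbumin buffers the calcium that each spike admits. In cortex most of them are parvalbumin basket and chandelier cells, which come from the medial ganglionic eminence of the embryo, as do the somatostatin interneurons. Interneurons marked by Vip, Cck or Lamp5 come mostly from other sources and rarely fire in this way.

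Levels are CPM, the counts of a gene divided by the total of that cell and multiplied by 1000000. They are not divided by gene length, so a level is compared between cells and not between genes. A gene was called found at 1 count or more. Totals ran from 36594 counts in F28 to 12043599 in F6, with a median of 680044, and genes found from 1013 in F20 to 7738 in F5. The 16 cells F13 to F28 had a median total of 246319 counts and the other 9 (F1, F2, F5 to F8, F11, F12 and F30) one of 2707087. The 16 also share a set of reads, described near the end, so they are given apart from the 9 throughout. Shares at equal depth are the exact expectation after each cell is reduced to 80000 counts, which leaves out F21 and F28 and keeps 14 and 9 cells. F11 and F12 may be 1 cell and are counted as 2 unless stated.

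The label was checked against 4 markers, Gad1 and Gad2, the enzymes that make GABA, Slc32a1, which loads it into vesicles, and Kcnc2, a Kv3 channel. With 5 counts as the limit, all 4 were present in 5 cells, which were F1, F2, F5, F6 and F30. None of the 4 reached 5 counts in 11 cells, of which 10 lay among F13 to F28 and the other was F8. With 1 count as the limit, all 4 were present in 7 of the 9 and 2 of the 16. In F7, F15 and F24 3 of the 4 reached 5 counts. The markers of the label were thus present in most of the 9 and in few of the 16, and the cells are called F cells after their titles. At equal depth, Gad1 was expected in 70% of the 9, 36.5% of the 14 deep enough of the 16 and 17.5% of 54 P cells. In the same order, shares were 82.8%, 35.1% and 5.99% for Slc32a1, 56.2%, 26.4% and 15.9% for Gad2, and 88.7%, 22.4% and 15.5% for Kcnc2. Those of Kcnc1, another Kv3 channel, were 100%, 28.2% and 33.2%, lower in the 14 than in P. For Slc17a7, which loads glutamate into the vesicles of pyramidal cells, these shares were 5.24%, 33.1% and 57.9%.

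A wider panel of 17 GABAergic and fast-spiking markers was set against 16 glutamatergic ones, each counted as present at 10 CPM or more. The GABAergic markers outnumbered the glutamatergic in 15 of 25 cells, which is 60% with an exact 95% binomial interval of 38.7 to 78.9%. Among the 9 this held in 8, with F8 tied at 1 and 1. Among F13 to F28 it held in 7 (F14, F15, F16, F19, F21, F24 and F27), with F25 tied. The glutamatergic markers outnumbered the GABAergic in 8 cells, all of them among F13 to F28. In F20, F21, F22, F26 and F28 1 read is worth more than 10 CPM, so that 1 read of a marker suffices there. In F20 and F26 most of the markers present rested on 1 or 2 reads. F13 was different, with 156 counts of Slc17a6, another vesicular glutamate transporter, 555 of Nrgn, the postsynaptic protein neurogranin, and 15 of Neurod6, a factor of excitatory neurons. F13 held no count of any of the 4 F cell markers, so the markers went against its label. F17 and F22 also held none of the 4, F17 with 170 counts of Nrgn and F22 with 174 of Neurod6. F18 held 64 counts of Slc17a7 and 54 of Camk2a, a kinase of excitatory synapses, with 1 of Gad2 and none of the other 3. It also held 333 counts of Satb1, a member of the GABAergic panel. Single glutamatergic markers were high among the 9 too, with 1585 counts of Camk2a in F1 and 1517 in F7. F7 held 5 glutamatergic markers at 10 CPM or more, beside 6 GABAergic ones.

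**Figure D1:**
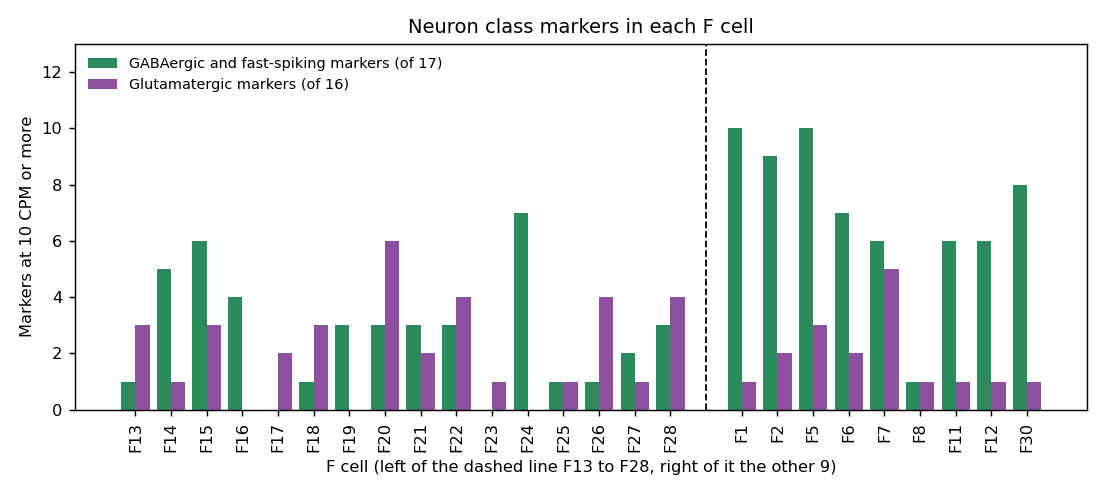
Number of GABAergic and fast-spiking markers (green, of 17) and of glutamatergic markers (purple, of 16) at 10 CPM or more in each F cell, with F13 to F28 left of the dashed line and the other 9 right of it. Green exceeds purple in 8 of the 9 cells on the right and in 7 of the 16 on the left.

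Gad1, Gad2 and Slc32a1, genes of GABA synthesis and transport, were each found in most F cells, and their levels split the cells into high and near-zero ones. Gad1 was found in 18 of 25 cells, 9 of the 16 and 9 of the 9. Its level ran from 0 through a median of 3.18 to 4820.2 CPM in F13 to F28, and from 0.739 through 1092 to 8713 CPM in the 9. The cells with high Gad1 were F6, F1, F5, F16, F24, F28, F15, F2, F7 and F30, at 334 CPM or more. No other cell exceeded 25.7 CPM, and among those were F8, F11 and F12, with 1, 3 and 2 counts. Gad2 reached 5 counts in 6 cells, with 6371 CPM in F1, 1839 in F5, 1729.7 in F6, 889 in F2, 164 in F30 and 18.7 in F14. F7 thus held Gad1 at 1092 CPM with 1 count of Gad2, and F16 held Gad1 at 4820.2 CPM with 4 counts of Gad2.

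Slc32a1 was found in 14 cells and reached 5 counts in 4 of the 16 and 8 of the 9. It was highest in F14, at 4606 CPM, followed by F30 at 2330.4 and F24 at 1813. In the 9 its lowest, median and highest levels were 0 in F8, 612 in F5 and 2330.4 CPM in F30. F11 and F12, with almost no Gad1 or Gad2, held Slc32a1 at 382 and 618 CPM, so the transporter and the enzymes did not reach 5 counts together there. Abat, the enzyme that breaks GABA down, was found in 9 cells, highest in F6 at 582 CPM.

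Transcription factors of interneurons were found more thinly. Satb1, a chromatin factor needed for the maturation of medial ganglionic eminence interneurons, was found in 14 cells, 5 of the 16 and 9 of the 9. F15 and F7 were highest, at 4575 and 3477 CPM, and the median of the 9 was 273 CPM. Lhx6, which sets the fate of cells from that source, was found in 8 cells but reached 5 counts only in F2, F5, F6, F1 and F7, with 592, 218, 117, 11 and 5 counts. Sox6, which acts after Lhx6, was highest in F24 and F1, at 108 and 87.8 CPM, and in the other cells had at most 11 counts. Maf, a leucine zipper factor of these interneurons, was highest in F6, at 635 CPM. Of the Dlx factors, which specify GABAergic fate, Dlx1 was highest in F12 at 178 CPM, Dlx2 in F27 at 504 CPM and Dlx5 in F14 at 612 CPM. Prox1, Nr2f2 and Sp8, which mark interneurons of the caudal eminence, reached 5 counts in 1 cell between them, Nr2f2 in F1 with 74 counts. Npas1 was found in none.

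Parvalbumin itself was rare. Pvalb was found in 2 of 25 cells, F1 with 1081 counts (229 CPM) and F2 with 80 (14.5 CPM). A count of 0 in the 16 allows a share of up to 18.75% of such cells with a count. The Kv3 channel genes were far wider. Kcnc1, which codes for Kv3.1, was found in all of the 9, from 131 CPM in F6 through a median of 557 to 2737 in F8, and none of these 9 cells held fewer than 408 counts. In F13 to F28 it was found in 5, at most 516 CPM in F15, and that cell was the only one of the 16 within the range of the 9. Kcnc2, which codes for Kv3.2, was found in 8 of the 9, from 50.5 CPM in F7 to 3031 in F6, with none in F8. In the 16 it was found in 4, with 12459 CPM in F16, 83.7 in F15, 11.8 in F24 and 6.46 in F25. At equal depth Kcnc1 was expected in every one of the 9 and in 28.2% of the 14.

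Most of the other genes tied to fast-spiking cells were found in few cells. Tac1, the precursor of substance P, was found at high levels in F30, F1 and F7, at 4346, 3736 and 382 CPM, and otherwise only as 2 counts in F13. Cox6a2, a subunit of cytochrome oxidase, was at 681 CPM in F19 and 436 in F1. Kcnab3, a potassium channel beta subunit, reached 218 CPM in F2 and 1 count in F15. Cplx1, a complexin of the release machinery, was found in 13 cells, highest in F28 at 7569.6 CPM and in F6 at 2097. Syt2, a calcium sensor of fast release, had 2 counts in F30 alone, and Erbb4, the neuregulin receptor, at most 11 counts, in F7.

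Sst and Npy were found together in F5, F18, F24 and F27, while other genes of the somatostatin class lay partly in other cells. Sst, the neuropeptide somatostatin, was found in 7 cells, at 2579.6 CPM in F27, 1188 in F5, 365 in F18 and 56.7 in F24, and at 11.5 CPM or less in F17, F7 and F19. Npy, neuropeptide Y, was high in 3 of the same cells, at 3542 CPM in F5, 2480.1 in F27 and 91.7 in F24, and elsewhere had at most 3 counts. No cell held both Sst and Pvalb. Crhbp, which binds the peptide Crh, was found in 4 of the 9, at 740.2 CPM in F5, 388 in F11, 352 in F12 and 101 in F6. Grin3a, an NMDA receptor subunit typical of somatostatin cells, was high in those same 4, from 336 to 2504 CPM, and in F24 at 311 CPM. Elfn1, a synaptic adhesion protein of these cells, was at 706 CPM in F5 and 53.9 in F27. Calb1, the calcium buffer calbindin, was found in 10 cells, from 1.08 CPM in F2 to 16975 in F22, with 1929.7 in F6, 1543 in F12 and 1531 in F11.

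Nos1, which makes nitric oxide and with Chodl marks long-range somatostatin cells, ran differently from the rest of its class. It was found in 11 of the 16 and 1 of the 9, with at most 11 counts in any cell, and it had no count in F5, F24 or F27. Chodl never exceeded 1 count.

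Genes of the Vip, Cck and Lamp5 classes were scattered. Cck, the peptide cholecystokinin, was found in 9 cells, 2 of the 16 and 7 of the 9, and was highest in F16 and F1, at 1602 and 1422 CPM. Cnr1, the cannabinoid receptor that sits on the terminals of Cck basket cells, was at 8235 CPM in F27, 613 in F7 and 231 in F30. Both reached 5 counts together in F1, F5 and F30. Calb2, the calcium buffer calretinin, was at 1341 CPM in F5 and 48.2 in F24. Crh, the peptide corticoliberin, was at 619.8 CPM in F27 and 558 in F7. Vip had at most 4 counts, in F5. Htr3a, Tac2 and Penk were found in none of the 25, which allows a share of up to 12% of such cells with a count. Reln, the secreted protein reelin, was at 5081 CPM in F24, 2644 in F27 and 1078 in F5, the cells with the highest Npy. Id2 was at 11076 CPM in F22. Lamp5 had 1 count in F13, Ndnf 3 in F7, and Adarb2, Sncg and Cxcl14 none.

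Read by cell, 3 combinations of class genes recurred. F1 and F2 held Pvalb with Gad1, Gad2, Kcnc1 and Kcnc2, and F1 also held Tac1 and Cox6a2. F5, F24 and F27 held Sst, Npy, Reln and Calb1 together, F5 and F24 with high Gad1 and F27 with 2 counts of it. F6, F11 and F12, the last 2 of which may be 1 cell, held Calb1, Crhbp and Grin3a with Kcnc1 and Kcnc2 but no count of Sst or Npy. F30 held Slc32a1 and Tac1, and F7 Tac1, Crh and Cnr1, both with Kcnc1 and Kcnc2. F15 and F16 were the cells among the 16 with Gad1, Kcnc1 and Kcnc2 all at 5 counts or more. F8 held Kcnc1 with 1 count of Gad1 and none of Gad2, Slc32a1 or Kcnc2. These groupings were drawn after the values were seen and are a description of these cells.

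**Figure D2:**
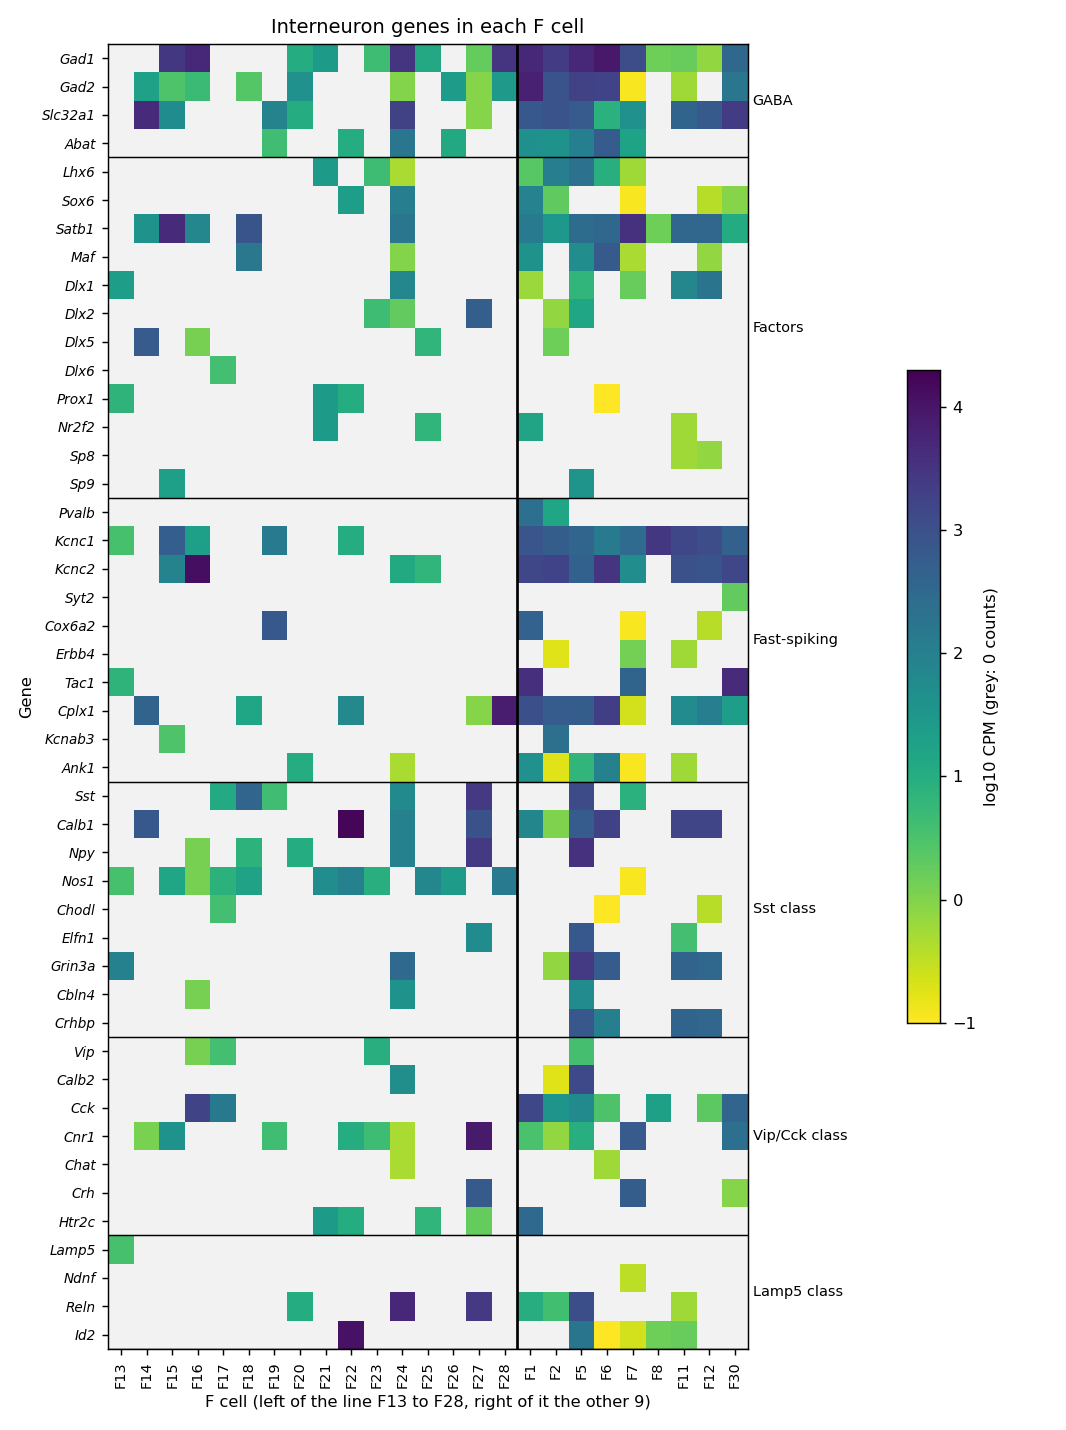
Level of the interneuron genes reported here in each F cell as log10 CPM, with grey for 0 counts, genes in rows by list and cells in columns, F13 to F28 left of the black line and the other 9 right of it. Kcnc1 is filled in all 9 columns on the right, while Sst, Npy and Reln meet in the columns of F5, F24 and F27.

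The peptide genes Sst, Npy, Cck and Tac1 each ran from 0 in most F cells to 1602 CPM or more in a few, and the 110 bases before the start of each are shown. They were picked from a longer set searched, which also held Vip and Pvalb. Sequences and starts are from RefSeq, build GRCm38.p6, which has the coordinates of mm10, read 5′ to 3′ on the strand of the gene. Capitals mark the core of the cyclic AMP response element, TGACG or its reverse complement CGTCA, searched in the 250 bases before the start. The full element, TGACGTCA, holds both cores overlapping. Sst lies at chr16:23890845-23890954 on the minus strand, Npy at chr6:49822600-49822709 on the plus strand, Cck at chr9:121495695-121495804 on the minus strand and Tac1 at chr6:7554951-7555060 on the plus strand.
Sst: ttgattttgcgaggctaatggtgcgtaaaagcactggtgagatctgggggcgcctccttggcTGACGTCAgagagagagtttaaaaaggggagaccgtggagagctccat
Npy: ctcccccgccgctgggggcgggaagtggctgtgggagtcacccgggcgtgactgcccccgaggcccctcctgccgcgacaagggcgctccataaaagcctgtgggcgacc
Cck: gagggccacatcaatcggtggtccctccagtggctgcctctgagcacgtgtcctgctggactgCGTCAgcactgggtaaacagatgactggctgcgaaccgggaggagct
Tac1: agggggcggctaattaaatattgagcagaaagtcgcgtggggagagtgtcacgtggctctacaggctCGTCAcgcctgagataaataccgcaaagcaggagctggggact
The full element stood in Sst alone, 48 bases before the start, and single cores 47 bases before it in Cck and 43 in Tac1, which has another further upstream at 197. In Npy these letters are not in this window. Vip, not shown, held 1 core 79 bases before its start, and Pvalb, not shown, held none. Of 32851 RefSeq promoters of mouse, 17.8% held a core and 1.55% the full element in the same 250 bases, so a core alone is common. A match is a description of the letters only.

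Genes found in nearly all F cells were few. Of 19685 genes in the table, 16095 were found in at least 1 F cell, 3783 in 1 cell only, and 112 in at least 20 of 25, which is 0.569% of the table. Only 4 were found in all 25, Rn45s, a ribosomal RNA precursor, Lars2, a mitochondrial leucyl-tRNA synthetase, Fndc5, the precursor of irisin, and Slx1b, an endonuclease subunit. The 16 had 142 genes in at least 13 cells and the 9 had 465 in at least 8, with 39 genes in both sets, 27.5% of the first and 8.39% of the second. At equal depth 10 genes were expected in 80% or more of cells, among them Rn45s, Meg3, Tuba1a, Malat1, Actb, Gria2 and Snhg11. The set of 112 depends on the limit of 1 count, since 11 genes reached 5 counts in 20 cells.

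By reads per cell, with no correction for length, noncoding RNAs and cytoskeletal genes were among those with the highest medians. Meg3, a long noncoding RNA of neurons, ran from 0 through 3941 to 624729.8 CPM, and Malat1, a nuclear noncoding RNA, from 0 through 2402 to 27544 CPM. Tuba1a, an alpha tubulin of growing and mature neurons, ran from 0 through 1962 to 721506 CPM. The median of Tmsb4x, which binds actin monomers, was 1642 CPM, that of Atp1b1, the beta subunit of the sodium pump, 925 CPM, and that of Ndrg4, a neuronal signalling protein, 845 CPM. Single genes took a large part of single libraries, with Tuba1a at 72.2% of the counts of F25, Meg3 at 62.5% of F20, and Slc25a4, the mitochondrial ADP carrier, at 37.7% of F19. In the 9 the largest share of 1 gene was 17.7%, that of Rn45s in F12. The cause of these shares was not tested.

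Single synaptic and housekeeping genes were widely found, but the median gene of these lists was found in 10 cells for vesicle release, 14 for ribosomal proteins, 12 for the respiratory chain and 11 for glycolysis. Snap25, part of the fusion machinery of vesicles, was found in 21 cells, with medians of 41.6 CPM in the 16 and 1439 in the 9 and a highest level of 28579 CPM in F13. Syt1, the main calcium sensor of release, was found in 19, with medians of 16 and 546 CPM. Of all genes in the table, 465 (2.36%) were found in at least 8 of the 9 and 142 (0.721%) in at least 13 of the 16. Of 27 cytosolic ribosomal protein genes, 13 were found in at least 8 of the 9 and none in at least 13 of the 16, led by Rplp1 in 21 cells. Of 24 respiratory chain and ATP synthase genes these counts were 5 and 1, led by Atp5b in 21 cells. Of 14 glycolysis genes they were 2 and 0, led by Pkm in 15 cells. At equal depth the median share of each of these 3 lists was higher in the 9 than in the 14, for ribosomal proteins 61% against 33.6% and for glycolysis 49.7% against 17.1%. The share was larger in the 9 for 26 of 27, 23 of 23 and 13 of 13 members found in at least 5 cells, against 73.5% of all such genes.

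Of the 112, 45 were found in fewer than 8 of the 9. They included Celsr1, Beta.s, Hcn2, Tmem158, and, chosen after their values were seen, Hoxb1, a patterning gene of the hindbrain, found in 22 cells at a median of 6.99 CPM, and Tfap2a, a factor of the neural crest and skin, found in 22 at 10.6 CPM.

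Of 183 ion channel and receptor genes listed, 179 were in the table, 87 channel and 92 receptor genes. The median F cell held 27 of them, from 12 in F20 to 91 in F7. The median was 20 in F13 to F28 and 58 in the 9, and after reduction to 80000 counts 13.3 in 14 and 32.9 in 9. The number followed how many genes of any kind were found, with a Pearson r of 0.949 and a Spearman rho of 0.915 against log10 of genes found over 25 cells, which share library depth. A missing channel in a cell with few genes therefore says little of that cell. By equal-depth share, 39 of 50 channel genes and 26 of 30 receptor genes found in at least 5 cells were higher in the 9, 78.0% and 86.7%. This was so for 73.5% of all 6130 genes found in at least 5 cells, and the shares of the lists are read against that.

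**Figure D3:**
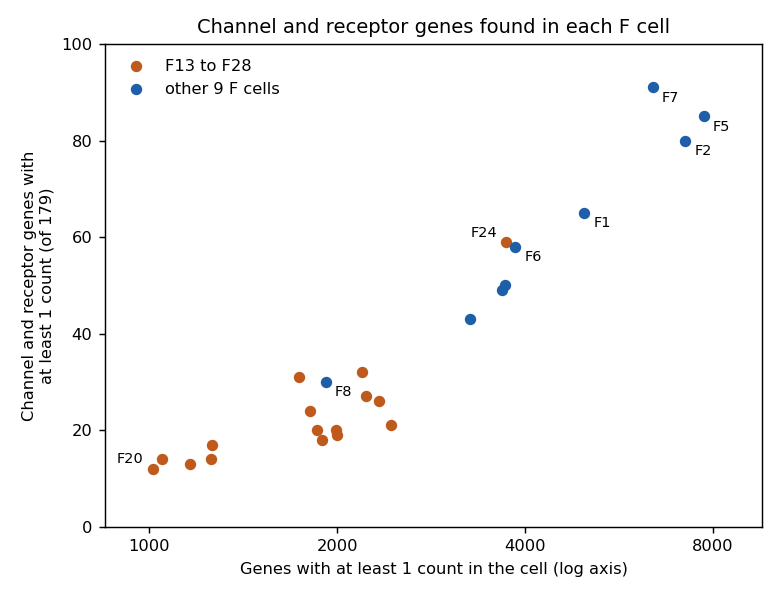
Number of channel and receptor genes found in each F cell (of 179) against the number of all genes found (log axis), F13 to F28 in orange and the other 9 in blue. The points lie along 1 rising band, from 12 in F20 to 91 in F7, and F24 lies with the 9.

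Voltage-gated sodium channels, which carry the upstroke of the spike, reached 5 counts in 8 of the 9 and 3 of the 16. Scn8a, which codes for Nav1.6 of the axon initial segment, was highest in F7 and F6, at 2501 and 917 CPM, and in the 16 highest in F16 at 344 CPM. Scn1a, which codes for Nav1.1, the main form of fast-spiking cells, was at 763 CPM in F2, 432 in F1, 281 in F30 and 106 in F5, and at 30 counts or fewer in F6, F7 and F8. In the 16 it was found in F24, with 64 counts (30.2 CPM), and in F19, with 1 count. F11 and F12 held no Scn1a but Scn2a1, which codes for Nav1.2, at 848 and 835 CPM.

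Among potassium channels other than Kv3, Kcna2, a Kv1 subunit of the axon, was found in 15 cells and reached 5 counts in 5 of the 16 and 7 of the 9, with 963 CPM in F12 and 756 in F23. Kcnab1, the beta subunit that inactivates Kv1, was highest in F30 at 5455 CPM. Of Kv4 channels and partners, Dpp10, an accessory protein, was highest in F18 at 5279 CPM, and Kcnd3 in F24 at 462 CPM. Kcnq3, a subunit of the M current, was found in no F cell. Kcnk2, a two-pore leak channel, was highest in F14 at 1409 CPM.

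Kcnmb1 and Hcn2 were found in a larger share of the 16 than of the 9. Kcnmb1, the beta subunit of calcium-activated BK channels in smooth muscle, was found in 16 of the 16, at 2 to 432 counts, and in 2 of the 9, at 1 count each. Hcn2, a channel of the h current, was found in 16 of the 16 at 1 to 13 counts, and in 6 of the 9 at up to 12. Both are among the 50 genes found in every one of the 16. Only Kcnmb1 is also among the 17 of these found in at most 2 of the 9. Hcn4 was found in none.

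Calcium channel genes reached 5 counts in 9 of the 16 and 6 of the 9. Cacna1a, which codes for the P/Q-type pore that drives release from fast-spiking terminals, was found in 8 of the 9, highest in F7 at 507 CPM, and in F28 and F15 of the 16. Cacna2d2, an alpha2delta subunit, was highest in F22 at 13467 CPM, and Cacnb4, a beta subunit, in F30 at 4102 CPM. F5 held the most members, with 9 of 15 at 5 counts or more.

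At least 1 subunit of the AMPA type of glutamate receptor reached 5 counts in 18 cells, against 14 for GABA-A and 11 for NMDA receptors. Gria2, the subunit that blocks calcium entry, was found in 22 cells, 13 of the 16 and 9 of the 9. Its levels in the 9 ran from 35.4 CPM in F30 through 2462 to 106371 in F8, and in the 16 from 0 through 16.9 to 1739 CPM. F8 thus stood alone, with 72337 of its 680044 counts on this gene. Gria1 was found in 9 of the 9, from 93.6 CPM in F6 to 2421 in F11, and highest of all in F27 of the 16, at 15895 CPM. Gria3 was highest in F11 and F12, at 4598 and 4238 CPM. Gria4, a fast subunit typical of parvalbumin cells, was found in 9 cells, highest in F6 at 1202 CPM and F24 at 1063.

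NMDA and metabotropic receptors were thinner. Grin1, the obligatory NMDA subunit, reached 5 counts in 7 cells, highest in F17 at 165 CPM. Grin2b reached 5 counts in F6, F30, F1, F5 and F2, with 1321 CPM in F6, and Grin2a was found in none. Grik1, a kainate receptor subunit, was highest in F1 and F6, at 808 and 771 CPM. Grm5, a group I metabotropic receptor, was found in 24 cells but reached 5 counts in 16, with 12046 CPM in F27 and 2951 in F2.

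GABA-A receptor genes reached 5 counts in 8 of the 9 and 6 of the 16. Gabrb2, a beta subunit, was at 4293 CPM in F15 and 3036 in F7. Gabbr1, a GABA-B subunit, was found in all of the 9, from 1.47 CPM in F8 through 213 to 1682 in F5, and in 4 of the 16 at 71.8 CPM or less. Its obligatory partner Gabbr2 reached 5 counts in F1 alone, at 168 CPM. Glrb, a glycine receptor subunit that also anchors at GABA synapses through gephyrin, was highest in F1, at 755 CPM.

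Receptors for modulators were found in few cells and mostly at few counts. Of the 10 acetylcholine receptor genes, Chrna4 was at 146 CPM in F24 and Chrnb2 at 70 CPM in F1, and no cell held both. Chrm4 and Chrnb4, the members found in most cells, never passed 4 counts. Htr2c was at 312 CPM in F1, Htr7 at 151 and 143 CPM in F11 and F12, and Adra2a at 132 CPM in F5. Adrb1 was at 37.1 CPM in F1, and Adora1, the A1 adenosine receptor, at 56 CPM in F1. Oprm1, the mu opioid receptor, was found in none, nor were Vipr1, Vipr2, Sstr2 and Sstr4.

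Co-detection was read at 5 counts in 38 pairs listed and in 8 families. Gad1 and Slc32a1 were together in 8 cells (F15, F24, F1, F2, F5, F6, F7 and F30), and Gad1 and Kcnc2 in 9, the same cells with F16. Kcnc1 and Kcnc2 were together in 10, 2 of the 16 and 8 of the 9. Gria1 and Gria2 were together in 12, with all of the 9 among them. Kcnc1 and Scn1a were together in 6, all among the 9, and Scn1a and Scn8a in 6, with F24 the only one of the 16. Pairs that were never together at this limit included Sst with Pvalb and Chrna4 with Chrnb2. Pvalb, Chrna4 and Chrnb2 were each found in only 2 cells, so these pairs had little room to meet. Vip never reached 5 counts, so Sst and Vip could not meet at this limit. At 1 count they met in 2 cells. Gad1 and Slc17a7 met in F1 alone, with 22 counts of Slc17a7. These numbers moved with depth, since cells with both Gad1 and Slc32a1 at 1 count had a median of 3720.5 genes and the other cells 1890.

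Whole families met mostly in the 9. At least 1 sodium channel and 1 Kv3 channel reached 5 counts in 10 cells, F16 and F24 of the 16 and all of the 9 but F8. In each of these 10, AMPA and GABA-A receptor genes did so too. NMDA receptor genes joined AMPA and GABA-A in 9 cells. All 8 families were present in 6 cells, F24, F1, F2, F5, F6 and F30.

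**Figure D4:**
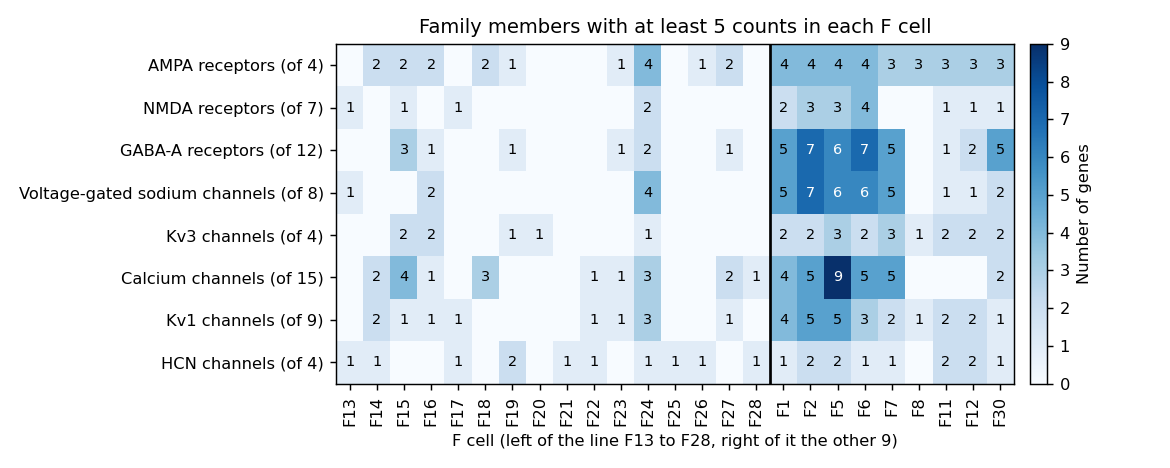
Number of members of 8 channel and receptor families with at least 5 counts in each F cell, with blank squares for 0, F13 to F28 left of the line and the other 9 right of it. F24 is the one column on the left with every family filled, and F8 the sparsest on the right.

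The 16 cells F13 to F28 share reads that the 9 mostly lack. In all, 50 genes were found in every one of the 16, and 17 of these (0.0864% of all 19685) in at most 2 of the 9. In the other direction, 25 genes (0.127%) were found in all of the 9 and in at most 5 of the 16. The 17 were picked by these same counts, so their low sums in the 9 follow in part from the choice. Celsr1, an adhesion receptor of planar polarity whose gene lies at chr15:85898929-86033777 on the minus strand of mm10, had 9 to 116 counts in 15 of the 16 and 1192 in F20, against at most 3 in the 9. Over the 16, totals span 57.8-fold and Celsr1 132-fold. Without F20, totals span 57.8-fold and Celsr1 12.9-fold. Summed over the 17 genes, counts ran from 161 in F13 to 2038 in F18 and 15426 in F20, with a median of 817, or 0.478% of the counts of a cell. In the 9 the sums were 0 to 31 except in F7, where Mfsd7b, a choline transporter that had 1019 CPM there, brought the sum to 8868. Of the 49 genes other than Celsr1 found in all of the 16, 26 kept a ratio to Celsr1 that varied by less than 1 on the log2 scale (SD over the 16 cells).

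**Figure D5:**
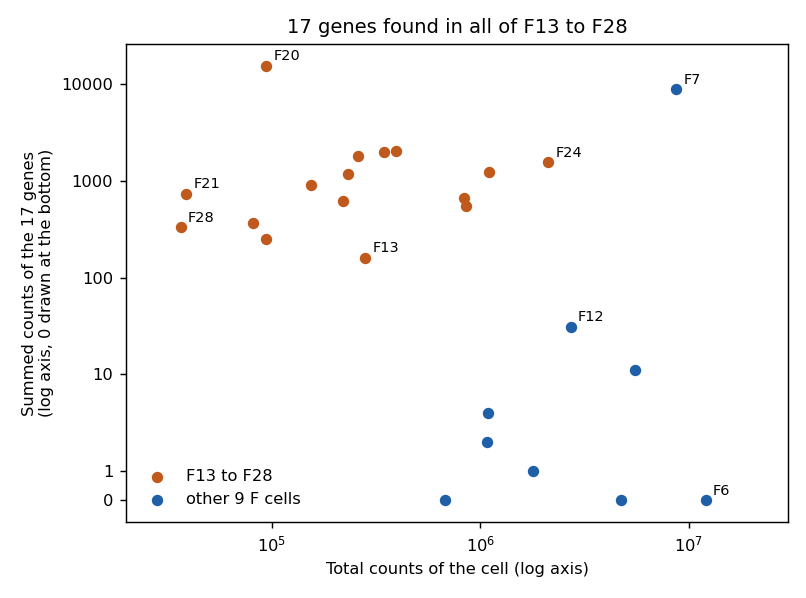
Summed counts of the 17 genes found in all of F13 to F28 and in at most 2 of the other 9 (log axis, 0 at the bottom) against total counts of the cell (log axis), F13 to F28 in orange and the other 9 in blue. The 16 lie in a band from 161 to 2038 counts with F20 above it at 15426, and all of the 9 but F7 lie at 31 or below. The genes were picked by these same counts, so the gap between the 2 sets of cells follows in part from the choice.

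The 10 genes with the largest difference in share at equal depth, larger in the 14, were Vasn, Ccdc3, Pdss1, Cdcp1, Slc6a20b, Trpv4, Celsr1, Tmem158, Vwa3a and Nxph3, each expected in 86.5% or more of the 14 and in at most 4.70% of the 9. Pdss1, an enzyme of ubiquinone synthesis, had 80 to 9103 counts in every one of the 16 and at most 4 in the 9. Larger in the 9 were Pdxp, Fgf12, Setd3, Slc4a3, Rps18, Tomm20, Kcnc1, Syngr1, Rab6a and Fchsd2, expected in 72.9% or more of the 9 and at most 28.2% of the 14. Pdxp, a phosphatase of vitamin B6, and Fgf12, which binds sodium channels, had no count in any of the 16 and were found in 8 of the 9, Fgf12 at up to 1249 CPM in F11. Beta.s, the adult beta globin Hbb-bs of red blood cells, was chosen for description after its values were seen. It had 12 to 5944 counts in every one of the 16 and was found in 5 of the 9, with 2734 counts in F7 and 235 in F1. Its log2 ratio to Celsr1 had an SD of 3.04 over the 16 cells. The split follows the column numbers, no label records what it stands for, and the part of these reads in any result was not tested.

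F11 and F12 were nearly alike. Over 12312 genes their log2 CPM correlated at a Pearson r of 0.960, and the next of 300 pairs of F cells, F1 and F5, at 0.449. Of genes with at least 5 counts they shared 1022, which is 88.0% of those in F11 and 68.9% of those in F12. Both held Calb1 at 1531 and 1543 CPM, Crhbp at 388 and 352, and Slc32a1 at 382 and 618, and both were free of Scn1a. Their counts were not identical, with a chi-square of 35.3 per gene over 1018 genes, against about 1 for independent reads, which amplified reads are not. With both counted as 1 cell, Pvalb stays at 2 cells.

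Markers of glia and vessels were present in part of the cells, and their part in the results was not tested. The summed level of 11 astrocyte markers had a median of 92.8 CPM in the 16 (0 to 18172) and 798 in the 9 (13.2 to 4366). Aldh1l1 was at 0 in all, and Aqp4 at 1 count at most. F14 was highest, with S100b at 9680.1 and Aldoc at 4779 CPM. Of 11 microglial markers, F18 held 7, with Tyrobp at 18884 CPM, and F5 and F2 held 10 each, F5 with a sum of 1243 CPM and F2 with one of 9.03. The medians of this list were 6.14 CPM in the 16 (0 to 31384) and 6.58 in the 9 (0 to 1243). Of the oligodendrocyte lineage, Sox10 was at 21411 CPM in F25, Olig1 at 3210.4 in F7, Pdgfra at 3566 in F23 and Mbp at 2664 in F27. That list had medians of 19 CPM in the 16 (0 to 21411) and 381 in the 9 (0.424 to 3387). Of 7 vessel markers, Vwf reached 3149 CPM in F13, the others 2 counts at most, and Pecam1 0. Most of these levels rest on 1 gene of a list in 1 cell, while in F5 they rest on many, among them Ctss at 410.4, Cx3cr1 at 211 and Csf1r at 159 CPM.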

How the data were processed

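The samples were 84 single neurons, grouped by the letter in their titles, and those with F are described here. What the authors deposited is 1 table of whole-number counts for 19685 gene symbols, not normalized, with totals that differ from cell to cell. Per the submitters' processing notes, bcl2fastq 1.8.4 was used for 3 F cells and bcl2fastq 2.17 for 22, with STAR 2.4.0 and mm10 for alignment. For the counter, annotation, strand setting and filters the entry is not given in the sources used here. Counts of overlapping, antisense or near-identical genes are therefore uncertain.

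Counts were divided by cell totals to give CPM. Detection at equal depth is the exact hypergeometric expectation at 80000 counts, checked on simulated data. Shares of cells carry exact Clopper-Pearson 95% intervals, which like the limit that 0 allows (3 counts of the total) cover counting error only, since amplified reads are not independent molecules. Each cell is 1 library from an unnamed animal, so no test was made. Tools were Python 3.11.15, numpy 2.4.6, pandas 2.3.3, scipy 1.17.1 and matplotlib 3.10.9. Coordinates are from GENCODE M21, and promoters and the name of Beta.s (Hbb-bs) from RefSeq.

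The members, lists and pairs were chosen with earlier results of these data known. Named genes are all members of the GABA, factor and class lists, the 2 channel or receptor genes per family and 3 genes per wide list found in most F cells, the 12 with the highest median CPM, the 10 in each direction between the 14 and 9 cells, all genes of the 38 pairs and those of the shared reads. Genes of the marker lists of other cells, Mfsd7b, Hoxb1, Tfap2a and the channel and receptor genes listed as found in no cell were named after their values were seen. Of 183 channel and receptor symbols 4 were not in the table and are not analysed here. Some genes of these lists are not reported here, though counts over a list include them.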

Additional observations from a re-analysis of the deposited data

How the results depend on the processing

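The number of genes found in 20 of 25 F cells, 112, was 11 with a limit of 5 counts, 10 at equal depth and 23 with a limit of 23 cells, and was 465 for 8 of 9 in the 9 cells alone. Cells with more GABAergic than glutamatergic markers numbered 15, of which 8 were among the 9. The median of channel and receptor genes per cell, 27, was 12 at 5 counts, 16.8 at equal depth and 58 in the 9 alone. Results for the 9 or the 16 alone were chosen after seeing the data.

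Of 59 counts of cells with a class gene, 31 stayed within 1.5 times at 5 counts, 29 at equal depth and 58 with F11 and F12 as 1 cell. Of 38 pairs these numbers were 28, 17 and 38. Mean CPM moved by less than 1 SD over cells without Rn45s and with F11 and F12 as 1 cell for all genes, and with pooled counts for 436 of 438 in the 16 and all in the 9. The order of the means of the 2 sets of cells turned under some of these for Slc32a1, Calb1, Npy, Meg3, Rplp1 and others, so no order of means is given for them. Depth limits detection most in F13 to F28. No paired analysis was possible because no test was made and numbers shared by F and P cells name no common animal.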
